A study of Mus musculus with 6 samples.

Results

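The genes described here are 9 ligands and receptors of the oncostatin M, IL-31 and IL-6 family, chosen by symbol from a deposited table of 17564 genes: the ligand genes Osm, Lif, Il6 and Il11 and the receptor genes Il31ra, Osmr, Lifr, Il6ra and Il6st. All 9 had a row. They were measured by bulk RNA sequencing of whole back skin from 8-week-old wild-type C57BL/6 mice, in 2 groups of 3 samples. The SspA/HDM group had shaved and depilated skin that received 3 µg SspA, the V8 serine protease of Staphylococcus aureus, together with 10 µg house dust mite extract (HDM) on its surface, received both again 3 days later and was collected on day 7. The untreated group was shaved and depilated and received neither agent; no collection day is given for it. Hair removal is thus shared by both groups, but the time from it to collection is not known to be. A difference in that time cannot be told apart from the treatment. The labels do not say whether the samples of a group are separate animals, so a p-value here reflects how far these samples spread, which may be technical. The comparison asks how the family differs in skin exposed to the protease and the mite extract.

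The cytokines of this family signal through receptor complexes that share gp130, the product of Il6st, or, for IL-31, the gp130-like chain encoded by Il31ra. Oncostatin M (Osm) acts through OSMR with gp130, leukaemia inhibitory factor (Lif) through LIFR with gp130, IL-6 and IL-11 through their own alpha chains with gp130, and IL-31 through IL31RA with OSMR, so that OSMR serves both oncostatin M and IL-31. Downstream, JAK kinases phosphorylate STAT3 and related factors. In skin, oncostatin M is known as an activator of keratinocytes and IL-31 as an itch cytokine that acts on sensory neurons.

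Of the 9 genes, 3 rose in SspA/HDM skin, all of them ligand genes (Osm, Il6 and Lif), and 1 fell, the receptor gene Il31ra. The 4 other receptor genes and Il11 did not pass the test. A gene was called at an adjusted p under 0.05 in limma on log2(scaled reads + 1), where scaled reads are the deposited read counts brought to 1 common total per library. Of the 15534 genes tested, 9.26% were called higher and 7.23% lower, 16.5% in all. All 9 members were tested, but Osm and Il6 passed the minimum on low counts only through the SspA/HDM libraries, so their presence among the tested genes is itself tied to their rise. The groups did not overlap for the 4 called members and overlapped for the other 5, while among all genes tested the SspA/HDM libraries lay wholly above the untreated ones for 21.7% and wholly below for 15.6%, 37.3% in all. edgeR, which called 8.04% of genes higher and 7.75% lower (15.8% in all), DESeq2, with 8.03% and 8.6% (16.6%), and the authors' deposited table, with 7.26% and 7.56% of its genes (14.8%), also gave 3 members higher and 1 lower.

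The windows just upstream of 3 of the called members are printed because these members moved in opposite directions. The sequences are from RefSeq (build GRCm38.p6, the assembly also called mm10), 250 bases before the annotated start, 5′ to 3′ on the gene's strand, with matches to 2 searched motifs in capitals.
Il31ra (chr13:112580663-112580912, minus strand): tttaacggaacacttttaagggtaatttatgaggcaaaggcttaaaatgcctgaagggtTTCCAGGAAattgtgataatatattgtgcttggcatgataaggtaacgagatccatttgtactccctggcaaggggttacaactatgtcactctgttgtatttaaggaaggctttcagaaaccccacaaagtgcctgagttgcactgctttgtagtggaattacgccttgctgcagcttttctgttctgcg
Il6 (chr5:30012864-30013113, plus strand): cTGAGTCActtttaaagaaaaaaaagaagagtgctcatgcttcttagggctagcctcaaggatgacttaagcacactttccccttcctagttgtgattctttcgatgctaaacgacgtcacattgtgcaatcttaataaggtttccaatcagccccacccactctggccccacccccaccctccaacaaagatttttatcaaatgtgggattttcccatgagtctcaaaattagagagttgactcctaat
Lif (chr11:4257318-4257567, plus strand): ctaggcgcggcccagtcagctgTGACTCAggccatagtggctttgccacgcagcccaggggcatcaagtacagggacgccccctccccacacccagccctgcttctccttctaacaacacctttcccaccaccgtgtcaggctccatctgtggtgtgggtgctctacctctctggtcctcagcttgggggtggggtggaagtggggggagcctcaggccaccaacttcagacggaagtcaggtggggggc
The capitals in Il31ra mark a match to TTCNNNGAA, the STAT type of site, at positions -191 to -183 from the start. Those in Il6 and Lif mark matches to TGANTCA, the AP-1 type of site, at positions -249 to -243 and -228 to -222. Both strands were searched, in windows of 300 bases that also hold the first 50 bases after the start, and no match overlapped another. Windows were matched for 8 of the 9 members by symbol, all but Osm, with 10 windows in all. The STAT type matched in 1 of these 8 genes and in 8.3% of 32851 promoter windows of the same length. The AP-1 type matched in 4 of the 8 genes (Il6, Lif, Il11 and Osmr) and in 7.81% of all windows. TGACGTCA, the CRE type, matched in none of the 8 and in 1.79% of all windows. The counts of members are by gene, from 10 windows, while the shares are by window, so the 2 are not on the same basis. The Lif window belongs to a start upstream of the transcript that the deposited table counted, which begins at position 4266796 on chromosome 11, and the Il11 match lies in the window of the second start of that gene. The Osmr match lies after the start, at positions 4 to 10. A match describes letters, not a bound site.

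Among the ligands, Osm, an activating cytokine of keratinocytes that is produced largely by leukocytes, had the largest rise of the 9 genes. Osm (mm10 chromosome 11, 4236785 to 4241026, plus strand) had 183, 57.7 and 27.7 scaled reads in SspA/HDM replicates 1, 2 and 3, against 6.59, 2.57 and 9.09 in untreated replicates 1, 2 and 3. All SspA/HDM libraries lay above all untreated libraries, but SspA/HDM replicate 1 was far above the other 2. The means were 89.6 ± 82.5 scaled reads in SspA/HDM and 6.08 ± 3.29 in untreated skin (SD, n = 3 each), a ratio of 14.7. On the log2 scale the fold change was 3.38 ± 0.65 (SE), with a 95% interval of 1.90 to 4.86 (limma, adjusted p = 0.0117). The untreated mean rests on 16 reads in 3 libraries, with 2 reads in replicate 2, so the size of the rise is uncertain. It was 2.66 without SspA/HDM replicate 1 and 4.00 without SspA/HDM replicate 3, and by limma-voom Osm missed the threshold (adjusted p = 0.0762; range over the 18 alternatives 4.63e-07 to 0.0762).

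Il6, the founding cytokine of the family, was higher as well, at few reads. Il6 (chromosome 5, 30013114 to 30019975, plus strand) had 46.4, 31.6 and 14.3 scaled reads in the SspA/HDM libraries, against 10.99, 5.15 and 6.82 in the untreated libraries. Its lowest SspA/HDM value, in replicate 3, was close to its highest untreated value, in replicate 1. The group totals were 87 reads in SspA/HDM and 20 in untreated skin, and the log2 fold change was 1.78 ± 0.47 (SE; 95% interval 0.73 to 2.84; limma, adjusted p = 0.0326). Leaving out any library but SspA/HDM replicate 3 ended the call. The adjusted p was 0.11 without SspA/HDM replicate 1, 0.108 without SspA/HDM replicate 2, 0.0521, 0.0979 and 0.0715 without untreated replicates 1, 2 and 3, 0.0803 with limma-voom and 0.057 without a trend in the spread (range over the alternatives 0.00813 to 0.11).

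Lif, a cytokine known for its action on stem cells and neurons, rose less than Osm and Il6 but evenly across libraries. Lif (chromosome 11, 4266796 to 4272514, plus strand) had 81.4, 98.0 and 98.3 scaled reads in the SspA/HDM libraries, against 47.3, 46.3 and 60.2 in the untreated libraries. The lowest SspA/HDM library was above the highest untreated one. The means were 92.6 ± 9.67 in SspA/HDM and 51.3 ± 7.77 in untreated skin (SD, n = 3 each), a ratio of 1.81, and the log2 fold change was 0.85 ± 0.19 (SE; 95% interval 0.41 to 1.28; limma, adjusted p = 0.0207). The authors' deposited table gives Lif a log2 fold change of 0.81 and an adjusted p of 0.0301. Lif was not called without SspA/HDM replicate 2 (adjusted p = 0.0814), untreated replicate 1 (0.0729) or untreated replicate 2 (0.0594), nor in the 4 libraries of like depth (0.067; range over the alternatives 0.02 to 0.0814). Those 4 libraries are SspA/HDM replicates 1 and 2 and untreated replicates 1 and 3.

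Il11, which in other tissues acts on fibroblasts and bone, did not pass the test. Il11 (chromosome 7, 4772378 to 4782857, minus strand) had 15.8, 26.1 and 18.5 scaled reads in the SspA/HDM libraries, against 9.89, 18.0 and 11.4 in the untreated libraries. The highest untreated library lay within the range of the SspA/HDM libraries. The log2 fold change was 0.60 ± 0.35 (SE; limma, adjusted p = 0.273), and its 95% interval, -0.18 to 1.38, includes rises as large as that of Lif.

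**Figure D1:**
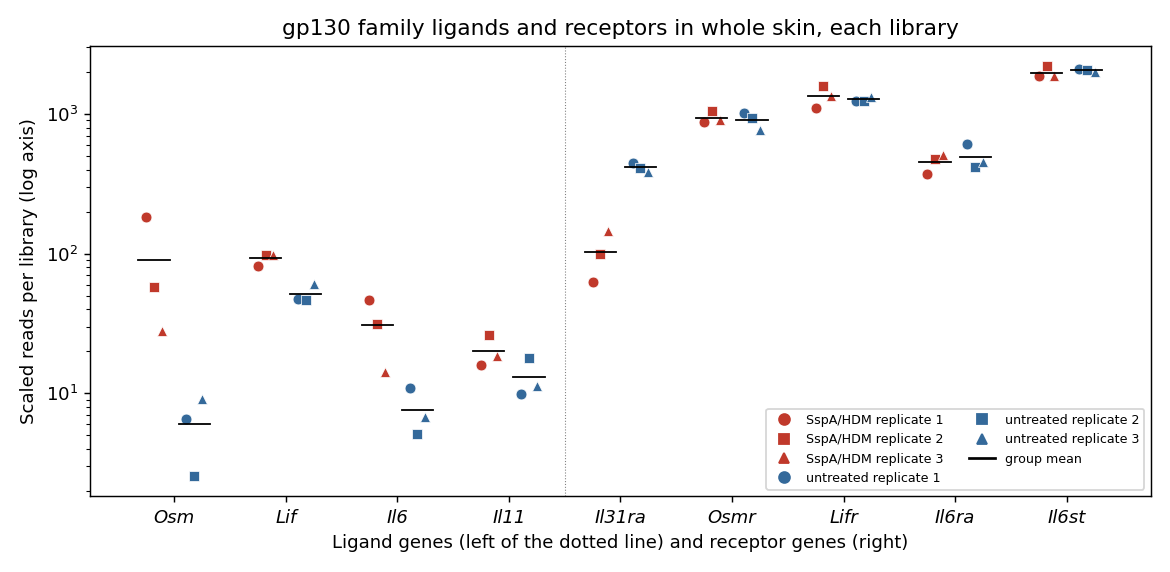
Scaled reads (log axis) of each ligand gene, left of the dotted line, and receptor gene, right of it, in every SspA/HDM (red) and untreated (blue) library, with black lines at the group means. The Osm points of SspA/HDM skin spread from 27.7 to 183, all above the untreated points, while those of Osmr, Lifr, Il6ra and Il6st overlap between the groups.

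Among the receptors, Il31ra fell, and it was the one called gene of the 9 whose call held under every alternative tried. Il31ra (chromosome 13, 112522807 to 112580662, minus strand) had 62.2, 99.1 and 145 scaled reads in the SspA/HDM libraries, against 445, 412 and 386 in the untreated libraries. The highest SspA/HDM library was well below the lowest untreated one. The log2 fold change was -2.09 ± 0.26 (SE; 95% interval -2.68 to -1.50; limma, adjusted p = 0.00281), and over the 18 alternatives it ranged from -2.39 to -1.78 with a largest adjusted p of 0.0176. In bulk skin, fewer cells that carry Il31ra and less Il31ra RNA per cell cannot be told apart, and the same holds for the rises.

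Osmr, the chain that oncostatin M and IL-31 receptors share, did not pass the test. Osmr (chromosome 15, 6813577 to 6874313, minus strand) had 874, 1049 and 907 scaled reads in the SspA/HDM libraries, against 1024, 938 and 769 in the untreated libraries. The ranges overlapped. The log2 fold change was 0.06 ± 0.12 (SE; limma, adjusted p = 0.785), with a 95% interval of -0.21 to 0.32, so that a change of Osmr the size of that of Il31ra lies outside the interval.

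Lifr, the LIF receptor chain, is a neighbour of Osmr. Lifr (chromosome 15, 7129572 to 7197489, plus strand) had 1101, 1595 and 1337 scaled reads in the SspA/HDM libraries, against 1241, 1243 and 1329 in the untreated libraries. Its SspA/HDM values spanned the untreated ones, with a log2 fold change of 0.07 ± 0.12 (SE; 95% interval -0.21 to 0.34; limma, adjusted p = 0.762).

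Il6ra, the alpha chain that binds IL-6 and confines its classic signalling to the cells that carry it, had 370, 474 and 513 scaled reads in the SspA/HDM libraries, against 611, 418 and 456 in the untreated libraries. The groups overlapped, and untreated replicate 1 was the highest of the 6. Il6ra (chromosome 3, 89869324 to 89913196, minus strand) had a log2 fold change of -0.12 ± 0.16 (SE; 95% interval -0.49 to 0.25; limma, adjusted p = 0.653).

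Il6st, which encodes gp130, had 1871, 2191 and 1882 scaled reads in the SspA/HDM libraries, against 2104, 2060 and 1985 in the untreated libraries. The untreated values lay inside the range of the SspA/HDM values. Il6st (chromosome 13, 112464070 to 112506860, plus strand) had a log2 fold change of -0.05 ± 0.08 (SE; 95% interval -0.24 to 0.13; limma, adjusted p = 0.711). Il6st averaged 0.343 reads per base of transcript, the only member above 0.2. For the 3003 genes above that limit, scaled values were lower in the deepest library, SspA/HDM replicate 3 (median log2 difference from the other libraries -0.15), and higher in the shallowest, untreated replicate 2 (0.12). In the 4 libraries of like depth the log2 fold change of Il6st was -0.01.

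**Figure D2:**
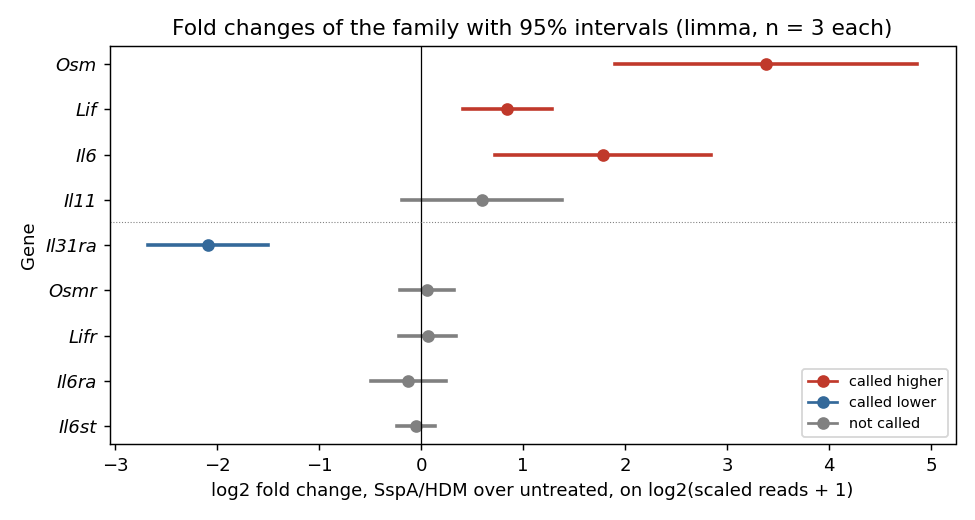
Log2 fold changes, SspA/HDM over untreated, on the log2(scaled reads + 1) scale (points) with 95% intervals (lines), ligand genes above the dotted line and receptor genes below it (limma, n = 3 each). The intervals of Osm, Lif and Il6 lie above 0 and that of Il31ra below it, and the other 5 include 0.

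Per length of transcript, the receptor genes were more abundant than the ligand genes in untreated skin, and the order changed in SspA/HDM skin where Il31ra and Osm moved. In SspA/HDM skin the order in scaled reads per kb was Il6st (365 ± 33.4, SD, n = 3), Osmr (196 ± 19.3), Lifr (136 ± 25.1), Il6ra (134 ± 21.9), Osm (47.1 ± 43.4), Il31ra (28.0 ± 11.4), Il6 (27.1 ± 14.2), Lif (22.6 ± 2.36) and Il11 (10.96 ± 2.91). In untreated skin it was Il6st (377 ± 11.1), Osmr (189 ± 27.0), Il6ra (147 ± 30.4), Lifr (129 ± 5.14), Il31ra (114 ± 8.07), Lif (12.5 ± 1.9), Il11 (7.12 ± 2.35), Il6 (6.75 ± 2.65) and Osm (3.20 ± 1.73). In SspA/HDM skin the neighbours from Osm down to Lif overlapped in their library values, as did Lifr and Il6ra, so that their order there is not settled. In untreated skin Osmr and Il6ra, Il6ra and Lifr, Il11 and Il6, and Il6 and Osm overlapped, while Il31ra was separate from both of its neighbours.

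The composition of the ligand RNA differed accordingly. Of the reads per kb of the 4 ligand genes together, Osm made up 58.1%, 31.5% and 23.8% in SspA/HDM replicates 1, 2 and 3, against 11.5%, 5.0% and 15.1% in the untreated libraries. Lif made up 12.0%, 24.9% and 39.2% in the SspA/HDM libraries, against 38.4%, 41.9% and 46.4% in the untreated libraries. Osm was thus the leading ligand gene in SspA/HDM replicates 1 and 2, and Lif was the leading one in SspA/HDM replicate 3 and in all untreated libraries. The Osm share of SspA/HDM skin lay above that of untreated skin in every library.

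Ratios within a library do not depend on how libraries are scaled, apart from the 1 added to each value before the log2 differences below. The percentages are without it. A two-sided exact permutation test, which cannot go below 0.1 with 3 samples against 3, was used to compare 4 ratios. Il31ra per kb was 9.38%, 12.5% and 21.1% of Osmr in the SspA/HDM libraries, against 57.3%, 57.9% and 66.2% in the untreated libraries. This is a log2 difference of -2.15 ± 0.35 (SE), without overlap (exact permutation p = 0.1, 0.133 after Benjamini-Hochberg adjustment over the 4 ratios). Il31ra relative to its neighbour Il6st differed by -2.04 ± 0.35 (SE), and Osm relative to Lif by 2.54 ± 0.94 (SE), both without overlap and with the same exact p of 0.1. With pseudocounts of 0.5 and 5 the difference of Osm relative to Lif was 2.65 and 1.96. Osm per kb was 484%, 127% and 60.7% of Lif in the SspA/HDM libraries, against 30.0%, 11.9% and 32.5% in the untreated libraries. The ratio of Lifr to Osmr overlapped between the groups, with a log2 difference of 0.01 ± 0.18 (SE; exact permutation p = 1).

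**Figure D3:**
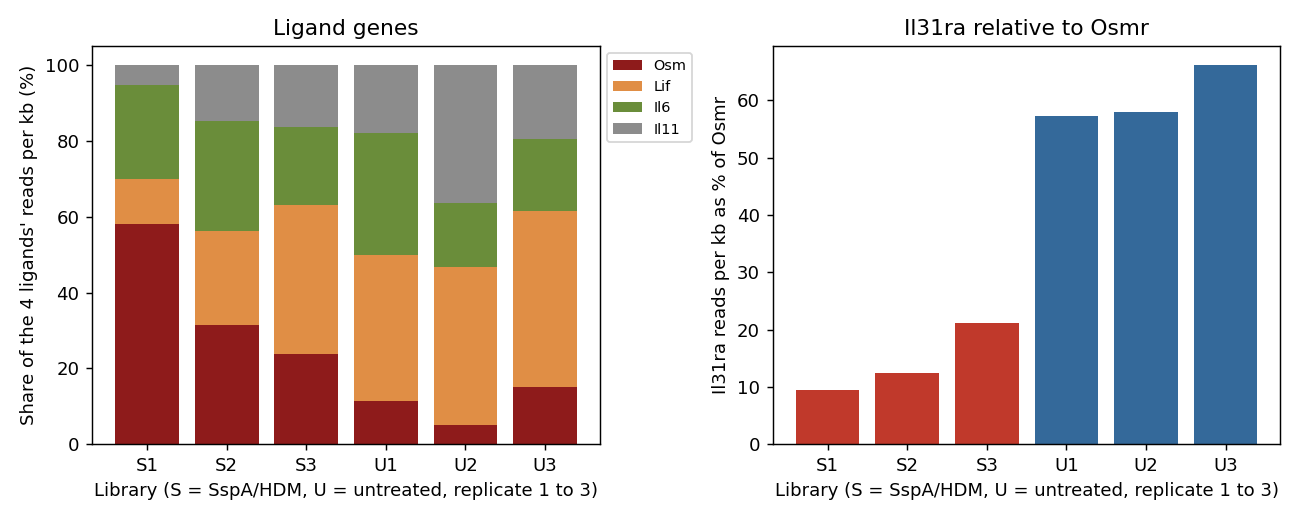
Left, the share of each ligand gene in the reads per kb of the 4 ligand genes together (%), by library. Right, Il31ra reads per kb as a percentage of Osmr; the SspA/HDM bars (S1 to S3) lie between 9.38% and 21.1% and the untreated bars (U1 to U3) between 57.3% and 66.2%.

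Of the members, 6 form 3 neighbouring pairs in the genome. Osm and Lif lie 25.8 kb apart on chromosome 11 on the same strand, and Il6st and Il31ra 15.9 kb apart on chromosome 13 on opposite strands; the annotation has no gene between the members of either pair. Osmr and Lifr lie 255 kb apart on chromosome 15, with 3 annotated genes between them, none of them protein-coding. Both members of the Osm and Lif pair were called higher, with log2 fold changes of 3.38 and 0.85. Neither member of the Osmr and Lifr pair was called. In the third pair Il31ra was called lower, at -2.09, and Il6st was not called, at -0.05.

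The 3 SspA/HDM libraries differed from each other in these genes. Osm and Il6 were highest in replicate 1 and lowest in replicate 3, and Il31ra was lowest in replicate 1 and highest in replicate 3. Summed over 11 neutrophil marker genes, scaled reads were 4891, 3672 and 1628 in SspA/HDM replicates 1, 2 and 3, against 588, 520 and 744 in the untreated libraries, in the same order among the SspA/HDM libraries as Osm and Il6. Ly6g, a defining marker, was at 0 in untreated skin and had 27, 9 and 3 reads in SspA/HDM replicates 1, 2 and 3. It was below the minimum on low counts and was not tested. All 10 tested neutrophil markers were called higher. Of these 10, Retnlg, Trem1 and Mmp8 passed the minimum on low counts only through the SspA/HDM libraries, and limma-voom called 6. The part of these cells in the rise of Osm and Il6 was not tested.

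Of 12 monocyte and macrophage markers 2 were called higher, with sums of 7609 to 10318 in SspA/HDM and 5407 to 7111 in untreated skin; the count was 5 without SspA/HDM replicate 3 and 4 without untreated replicate 3. Of 6 T cell markers with a row 3 were called higher, with sums of 501 to 615 in SspA/HDM and 243 to 350 in untreated skin, and 1 was called without SspA/HDM replicate 2. Of these 3, Cd8a passed the minimum only through the SspA/HDM libraries. Cd4 made up much of the difference in the sums, at a mean of 217 scaled reads in SspA/HDM and 45.5 in untreated skin. The T cell receptor complex genes Cd3e (-0.49; limma, adjusted p = 0.102) and Cd3g (-0.22; limma, adjusted p = 0.404) had SspA/HDM libraries wholly below the untreated ones, without passing the test. Cd3d, of the same complex, had them wholly above (0.92; limma, adjusted p = 0.0747), also without passing the test. None of 6 basal keratinocyte markers was called higher and 2 were called lower, with sums of 8751 to 11102 in SspA/HDM and 10832 to 11405 in untreated skin (1 lower without untreated replicate 1). For 6 suprabasal keratinocyte markers, 2 were called lower, with sums of 7036 to 7798 in SspA/HDM and 8464 to 9439 in untreated skin. Of the 7 Schwann and sensory nerve markers with a row, 2 of 5 tested were called lower (1 without untreated replicate 1), with sums of 1434 to 1504 in SspA/HDM and 1769 to 2000 in untreated skin, and none of the 7 was at 0 in all libraries of a group. The 8 hair follicle markers summed to 849 to 4197 in SspA/HDM and 250 to 285 in untreated skin, and 6 of the 8 were called higher. Of these 6, Krt25, Shh and Krt35 passed the minimum only through the SspA/HDM libraries, and the count was 3 by limma-voom, 8 by DESeq2 and 8 without SspA/HDM replicate 2. Defining markers of the epidermis, fibroblasts (sums of 14540 to 18443 in SspA/HDM and 12611 to 15420 in untreated skin) and endothelium (4478 to 5397 in SspA/HDM and 3568 to 4113 in untreated skin) were present in all libraries, as whole skin should hold. None of the 7 fibroblast markers was called. Of the 6 endothelial markers 2 were called higher, Emcn (0.46; limma, adjusted p = 0.0452) and Vwf (0.70; limma, adjusted p = 0.0067). The endothelial count was 1 to 4 over the alternatives. Markers of adipocytes, 3 of 6, and of sebaceous glands, 4 of 6, were called lower over the 6 libraries, with adipocyte sums of 3597 to 4353 in SspA/HDM and 4979 to 6255 in untreated skin and sebaceous sums of 4783 to 5602 in SspA/HDM and 7208 to 7305 in untreated skin. The sebaceous count was 0 without SspA/HDM replicate 1, 1 without SspA/HDM replicate 2, 1 without untreated replicate 1, 1 without untreated replicate 3, and 0 with 1 prior variance for all levels. For the 6 skeletal muscle markers, sums were 7217 to 9189 in SspA/HDM and 9832 to 11856 in untreated skin, and all 6 had SspA/HDM libraries wholly below untreated ones. None of the 6 was called by limma, though all 6 had an unadjusted p under 0.05, while edgeR called 1 lower, the replicate block 3, DESeq2 5, and 4 were lower in the authors' deposited table. Of 8 mast cell markers 3 were called higher, with overlapping sums of 2069 to 2405 in SspA/HDM and 1546 to 2286 in untreated skin. That count was 0 without SspA/HDM replicate 2, 1 without SspA/HDM replicate 3 or untreated replicate 1 or 2, 1 by edgeR and by limma-voom, and 2 by DESeq2, which called 1 lower. The mast cell receptor gene Mrgprb2 lay the other way, at a mean of 84.9 scaled reads in SspA/HDM and 160 in untreated skin (-0.96; limma, adjusted p = 0.0521). Several of these markers were densely covered, with up to 0.907 reads per base for Krt14 and 0.83 for Acta1. Genes above 0.2 reads per base had lower scaled values in SspA/HDM replicate 3 and higher ones in untreated replicate 2, as given for Il6st. In the 4 libraries of like depth, 2 basal, 3 suprabasal and 3 adipocyte markers were called lower, and no muscle marker was. The part of depth in the marker sums was not tested. The part of any of these cell types in the fall of Il31ra was not tested either.

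**Figure D4:**
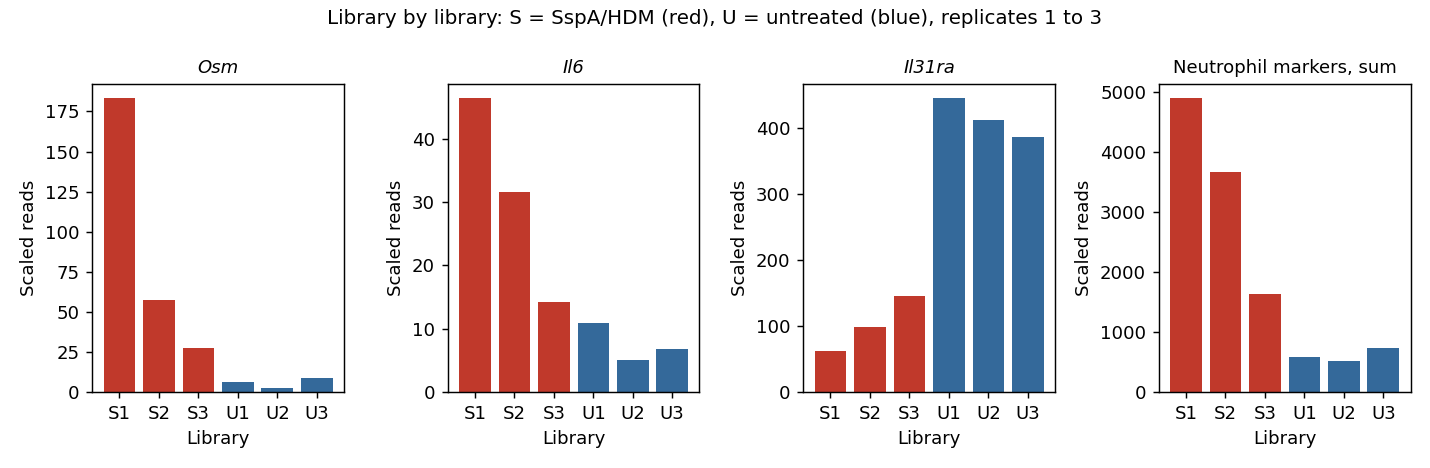
Scaled reads of Osm, Il6 and Il31ra and the sum over 11 neutrophil markers, library by library (S1 to S3 are the SspA/HDM and U1 to U3 the untreated replicates; each bar is 1 library). In the SspA/HDM libraries Osm, Il6 and the neutrophil sum are highest in S1 and lowest in S3, and Il31ra runs the other way.

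For each member the 3 genes with the most similar pattern were taken as those with the smallest root mean square difference of centred log2 values over the 6 libraries, a description in which the groups carry most of the likeness. For Il31ra these were Adcy1 (0.16), the leptin gene Lep (0.20) and Aadacl4fm1 (0.22). For Osm they were the non-coding RNA gene Mirt2 (0.33), Clec4d (0.39) and Sirpb1b (0.42), for Il6 Pglyrp1 (0.11), Nfe2 (0.12) and Slc13a3 (0.17), and for Lif Traf3ip3 (0.05), Lck (0.06) and Gata1 (0.07). Mirt2 had 90.5, 37.0 and 15.1 scaled reads in the SspA/HDM libraries, against 3.30, 2.57 and 4.54 in the untreated libraries. Adcy1 had 114, 160 and 240 in the SspA/HDM libraries, against 585, 647 and 526 in the untreated libraries, and thus the same order as Il31ra within SspA/HDM skin. The nearest genes of the uncalled members were Gm16104, Supt3 and Cyp4v3 for Osmr, Chn1, Plcb1 and Steap3 for Lifr, Lrrc75a, Asap3 and Zfp551 for Il6ra, Camk1, Tagln and Camk2d for Il6st, and Pcdh12, Ifit3 and Uchl1 for Il11.

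Of 5 tested ligand genes beyond the members, 1 rose and the other 4 were not called, beside 9.26% of all genes tested called higher. Ebi3, the beta chain of IL-27 and IL-35, had 55.4, 69.7 and 64.7 scaled reads in the SspA/HDM libraries, against 23.1, 20.6 and 40.9 in the untreated libraries (log2 fold change 1.20 ± 0.29 SE; limma, adjusted p = 0.0251). Ebi3 was not called without SspA/HDM replicate 1 (adjusted p = 0.0535) or 2 (0.0907), without untreated replicate 1 (0.0845) or 2 (0.0729), or in the 4 libraries of like depth (0.0751; range over the alternatives 0.0113 to 0.0907). Clcf1, cardiotrophin-like cytokine, was not called (0.51; limma, adjusted p = 0.0678), and neither was Il27 (0.50; limma, adjusted p = 0.334). Ctf1 (-0.52; limma, adjusted p = 0.103) and Cntf (-0.22; limma, adjusted p = 0.663) lay the other way and were not called. The SspA/HDM libraries of Ctf1 were wholly below the untreated ones. Ctf2 was below the minimum, with 15 reads in SspA/HDM and 8 in untreated skin. Il31, the ligand of Il31ra, and Il11ra2 had no row in the deposited table and so were not analysed here.

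Of the 3 other receptor genes tested, 2 rose, beside 9.26% of all genes tested called higher. Cntfr, the alpha receptor used by ciliary neurotrophic factor, had 234, 266 and 323 scaled reads in the SspA/HDM libraries, against 67.0, 83.6 and 65.9 in the untreated libraries. No library of the groups overlapped (log2 fold change 1.91 ± 0.17 SE; limma, adjusted p = 8.76e-04), and the call held under all 18 alternatives. Il27ra, the IL-27 receptor chain, had 79.2, 78.4 and 88.2 in the SspA/HDM libraries, against 44.0, 19.3 and 36.4 in the untreated libraries (1.35 ± 0.30 SE; limma, adjusted p = 0.0184). Il27ra was not called without SspA/HDM replicate 1 (adjusted p = 0.0526) or 2 (0.0574; range over the alternatives 0.00378 to 0.0574). Il11ra1 was not called (0.00; limma, adjusted p = 0.99).

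None of the 7 genes for JAK kinases and STAT factors was called in either direction, by limma, edgeR or DESeq2, with a median log2 fold change of 0.05 beside 0.03 over all genes tested. In limma 2 of them, Stat5a and Stat5b, had an unadjusted p under 0.05. Stat3, the main transcription factor of the pathway, had 1635, 1680 and 1396 scaled reads in the SspA/HDM libraries, against 1595, 1510 and 1342 in the untreated libraries (0.08 ± 0.10 SE; limma, adjusted p = 0.612). None of the 8 inhibitor genes was called by these 3 tools either, with a median of -0.05, and in limma 2 of them, Cish and Pias3, had an unadjusted p under 0.05. Cish, a cytokine-induced SOCS family gene, was called lower with the replicate number as a block, in the 4 libraries of like depth and without SspA/HDM replicate 3. Socs3, the feedback inhibitor that STAT3 induces and that binds gp130, had 617, 644 and 583 in the SspA/HDM libraries, against 825, 652 and 452 in the untreated libraries (-0.02 ± 0.18 SE; limma, adjusted p = 0.949). Untreated replicates thus spanned a wider range than the SspA/HDM replicates.

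Of 16 genes known to respond to STAT3 or oncostatin M, 2 rose and none fell, with a median of 0.01. Among all genes tested, 9.26% were called higher and 7.23% lower, so in this fit over 6 libraries 2 of 16 is near the share of all genes. The 2 that rose were Saa3, an acute-phase apolipoprotein gene (2.35 ± 0.28 SE; limma, adjusted p = 0.00248), and Lcn2, an iron-sequestering antimicrobial protein gene (1.44 ± 0.26 SE; limma, adjusted p = 0.00946). Saa3 had 422, 398 and 229 scaled reads in the SspA/HDM libraries, against 93.4, 50.2 and 59.1 in the untreated libraries. Lcn2 had 486, 460 and 233 in the SspA/HDM libraries, against 132, 122 and 160 in the untreated libraries. Both were lowest, among the SspA/HDM libraries, in replicate 3, where the neutrophil sum was lowest too, and Lcn2 is also 1 of the neutrophil markers above. The other 14 were not called, among them Bcl3 (0.53; limma, adjusted p = 0.105), Timp1 (0.70; limma, adjusted p = 0.24), Junb (-0.03; limma, adjusted p = 0.862) and Cebpd (-0.04; limma, adjusted p = 0.872). The count was 6 in the 4 libraries of like depth, 5 without SspA/HDM replicate 3 and 3 with the replicate number as a block. Of the 15534 genes tested, 1330, 1389 and 1348 were called higher in these settings. The counts of 6 and 5 of 16 thus lie above the share of all genes, unlike the count over the 6 libraries. Why they moved was not tested.

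**Figure D5:**
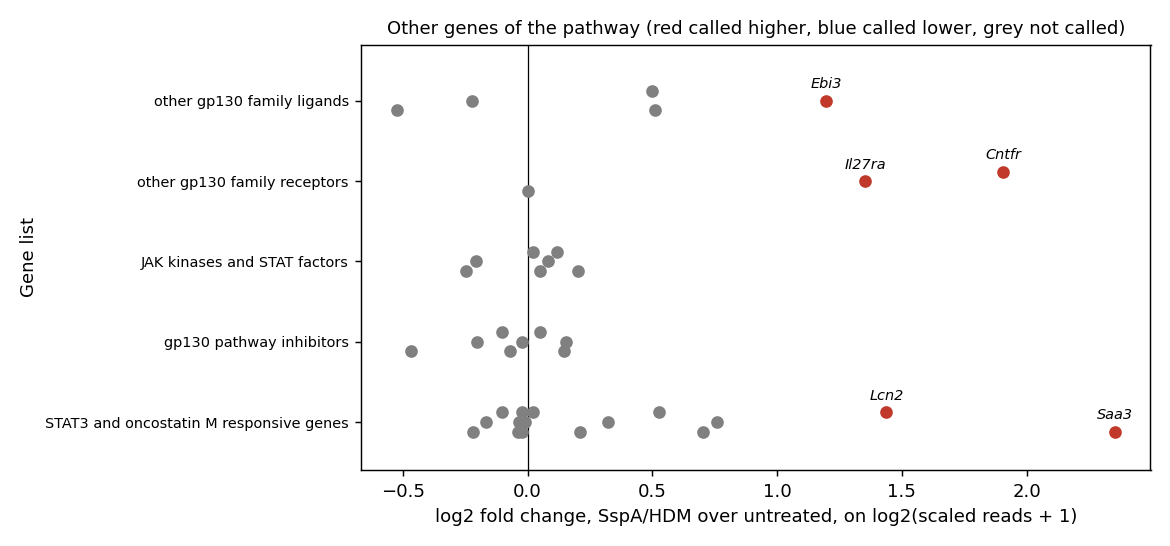
Log2 fold changes, SspA/HDM over untreated, on the log2(scaled reads + 1) scale of the tested genes of 5 pathway lists (1 point per gene, shifted vertically for legibility). Called genes are named: Cntfr, Il27ra, Ebi3, Saa3 and Lcn2 lie to the right, while no JAK, STAT or inhibitor gene is called, the lowest of them being Cish at -0.47.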

How the data were processed

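The labels' protocols name stranded mRNA libraries from whole skin RNA. The submitters' processing notes list build mm10, DESeq2, STAR and bcl2fastq 2.20.0.422, without a read counter or filters. The authors deposited a scaled signal per gene, log2 fold changes, p-values and adjusted p-values. Each value column held whole multiples of 1 step, 100.0% of values lying within 0.1 of a whole read, and recovered reads were 4928245 to 7545567 per library. Since the deposited signal values are not counts, limma 3.58.1 under R 4.3.3, its prior variance following mean level, was fitted to log2(value + 1), with group as the only term, for 15534 genes passing filterByExpr of edgeR 4.0.16 (minimum count 10, minimum total 15), with Benjamini-Hochberg adjustment over all of them. The fit was tested on simulated data. Intervals are 95%. Fold changes on this scale understate those of low genes. Alternatives were edgeR, limma-voom and DESeq2 1.42.0 on the recovered reads, other scaling, filters and pseudocounts (0.5 and 5), a replicate block, fewer libraries, and the authors' deposited comparison. The alternatives for the other pathway genes and lists were added after seeing the data. Members, lists and tests were chosen with earlier results of these data known. All 9 members are named, and in each list the called genes where 5 or fewer; uncalled list genes given as examples were chosen after their values were seen. 1 gene of the ligand list is not reported here and was left out of its counts. Figures used matplotlib 3.10.9 (Python 3.11.15).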

Additional observations from a re-analysis of the deposited data

How the results depend on the processing

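Il31ra was called lower, and Osmr, Lifr, Il6ra, Il6st and Il11 were not called, under all 18 alternatives. With limma-voom 1 member was higher, and Osm (3.31, adjusted p = 0.0762) and Il6 (1.71, adjusted p = 0.0803) were not called. With 1 prior variance for all levels, 922 genes were higher and 640 lower, and Il6 missed the threshold (1.78, adjusted p = 0.057). So did Lif (0.73, adjusted p = 0.067) among the 4 libraries similar in depth. The cause was not tested in either case. Leaving out 1 library gave 597 to 1389 genes higher and 518 to 1333 lower, against 1439 and 1123 over the 6 libraries (856 and 623 when SspA/HDM replicate 1 was omitted, 597 and 518 for SspA/HDM replicate 2, 675 and 543 for untreated replicate 1, 751 and 644 for untreated replicate 2). It gave 1 to 3 members higher (1 without SspA/HDM replicate 2 and without untreated replicate 1 or 2), and log2 fold changes of 1.42 to 2.24 for Il6, 0.78 to 0.96 for Lif, -0.0593 to 0.15 for Osmr, -0.066 to 0.20 for Lifr, -0.24 to 0.0369 for Il6ra and -0.10 to 0.16 for the ratio of Lifr to Osmr. Why the counts moved when a library was left out was not tested. With the replicate number as a block, 1348 genes were higher and 1096 lower, with 3 members higher and 1 lower. Same-numbered samples did not deviate together (correlations -0.085, -0.0545 and 0.0538), and none of the SspA/HDM libraries correlated best with the untreated library of its own number, so the numbers were not taken as pairs. Among the called members, depth limits Osm and Il6 most, with 16 and 20 reads in untreated skin. Il11, which was not called, had the fewest reads per base of the 9 members (mean 0.0084), with 60 reads in SspA/HDM and 33 in untreated skin.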

Other observations

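Within 250 kb of Il31ra, Ankrd55 was higher (1.21; limma, adjusted p = 0.0199), while Slc38a9 (0.19; limma, adjusted p = 0.26) and Plpp1 (-0.25; limma, adjusted p = 0.0964) were not called and Ddx4 was below the minimum on low counts. Of the 10 tested genes other than Lif within 250 kb of Osm, 7 were not called and 3 were, beside 16.5% of all genes tested. Of these, Castor1 (0.52; limma, adjusted p = 0.0455) and Sec14l2 (0.42; limma, adjusted p = 0.0161) were higher and Gal3st1 was lower (-0.94; limma, adjusted p = 0.0323). Around Il6, none of the 4 tested neighbours was called. The window was chosen after the members' values were seen.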
